A study of Mus musculus with 2 samples.

Results

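MicroRNAs known from blood cells were examined in small RNA libraries of embryonic mouse hearts. The members were every precursor whose mature miRBase name is miR-144, miR-451a, miR-486a, miR-486b, miR-142a, miR-150, miR-155, miR-146a, miR-146b or miR-223, with both names of miR-486 treated as 1 miRNA. Of these 9 miRNAs, 8 were listed in at least 1 replicate and 7 in both, by 12 of the 620 precursor entries of the series. Replicate 1 held 11 of its 568 entries and replicate 2 held 12 of its 523. The series has 1 group of 2 samples, both of whole heart from wild type C57BL/6 embryos at embryonic day 9.5 (E9.5), with no treatment between them. Whether the replicates came from separate embryos, litters or pools is not stated, so differences between them may be technical. Small RNAs were read to 50 nt, and the tables give, for each known precursor, the reads on the mature arm, on the loop and on the opposite (star) arm. Mature reads came to 4942257 in replicate 1 and 4806179 in replicate 2, with a median of 189 and 263 reads per entry. Levels are given as RPM, mature reads per 1000000 mature reads of the library. All members' mature sequences are 20 to 23 nt, so no correction for length was made.

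A miRNA is cut from a hairpin precursor, loaded into an Argonaute protein, and pairs with target mRNAs mainly through its seed, bases 2 to 8. The red blood cell members are miR-144 and miR-451a, which are made from a shared primary transcript driven by GATA1 during erythropoiesis, and miR-486, which lies in the ankyrin gene Ank1 and is also known from striated muscle. The white blood cell members are miR-142a, found in nearly all haematopoietic lineages, miR-150 of mature lymphocytes, miR-155 of activated lymphocytes and macrophages, miR-223 of neutrophils and monocytes, and the NF-κB induced pair miR-146a and miR-146b. Primitive red blood cells of the yolk sac circulate through the heart tube at this stage, whereas mature lymphocytes have not yet formed. In whole tissue, fewer cells of a type and less RNA per cell cannot be told apart.

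The deposited mature sequences of the red blood cell members are shown first, 5′ to 3′, with the seed in capitals, since the results turn on which of them share reads.
miR-486: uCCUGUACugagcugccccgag
miR-451a: aAACCGUUaccauuacugag
miR-144-5p: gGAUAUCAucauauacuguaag
miR-144-3p: uACAGUAUagaugauguac
The white blood cell members follow, again with the seed in capitals.
miR-146a: uGAGAACUgaauuccaugggu
miR-146b: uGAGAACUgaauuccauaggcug
miR-155: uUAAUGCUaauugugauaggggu
miR-142a-3p: gUAGUGUUuccuacuuuaugga
miR-150: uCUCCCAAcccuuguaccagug
Among them, miR-146a and miR-146b alone share a seed, GAGAACU. Counted from the 5′ end of miR-146a, miR-146b differs over the 21 bases compared by G18A and U21C and carries 2 further bases at its 3′ end. No entry under another name had a mature sequence with the deposited seed of any member's mature arm. Among mature sequences, those seeds thus belonged to the members alone. The seed of miR-144-3p, the star arm of its entry, was not among those compared. For miR-223, which was listed in neither replicate, the RefSeq sequence of the 3p arm is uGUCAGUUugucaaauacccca.

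Compared with mature sequences of RefSeq (assembly GRCm38.p6), miR-155 was identical from end to end. The deposited miR-451a, of 20 nt, ended 2 bases before the RefSeq form of 22 nt, and miR-146a and both arms of miR-144 ended 1 base earlier than theirs. Those differences leave the seed as it is. For miR-142a they do not, because the deposited 3p sequence starts 1 base after the RefSeq sequence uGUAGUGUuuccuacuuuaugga, which moves the seed from GUAGUGU to UAGUGUU. On the other arm, the deposited cCCAUAAAguagaaagcacuac of replicate 2 starts 2 bases before the RefSeq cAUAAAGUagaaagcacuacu. Entries for the 5p arms of miR-150, miR-486a and miR-486b were not matched in RefSeq by name.

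miR-486 was the most abundant member. Its highest entry had 5456 mature reads in replicate 1 and 6534 in replicate 2, or 1104 and 1360 RPM (1232 ± 181, SD, n = 2). It ranked 83 of the 471 entries listed in both replicates. The inflammatory regulator miR-146b came next, with 756 and 664 reads (146 ± 10.5 RPM, SD, n = 2). miR-155 had 311 and 359 reads (68.8 ± 8.32), and miR-146a had 254 and 306 (57.5 ± 8.68). The values of miR-155 and miR-146a overlapped between replicates. By mature reads, all other neighbours in the order did not overlap, with miR-144 at its single value. All were read in the same 2 libraries, which are too few to test the order.

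Below these stood miR-142a, with 227 and 207 reads (44.5 ± 2.02 RPM, SD, n = 2), and miR-451a, with 128 and 127 reads (26.2 ± 0.371). miR-451a, which promotes the maturation of red blood cells, thus ranked 298 of 471. miR-144 was listed in replicate 2 alone, with 73 reads on its 5p arm, or 15.2 RPM and 0.00152% of mature reads (95% Wilson interval 0.00121 to 0.00191%). The lymphocyte miRNA miR-150 had 46 and 44 reads (9.23 ± 0.108 RPM, SD, n = 2) and ranked 350. The order depends on the reads counted. With all reads of the precursor, both arms included, miR-144 held 0.00251% of reads in replicate 2 and miR-451a 0.00265%, and miR-142a held 0.00564 and 0.00518% against 0.00501 and 0.00620% for miR-146a, which then overlapped. Wilson intervals here cover the error of counting reads only. Entries with totals of 2 reads were listed in either table, yet an entry that is not listed need not be low. The largest such case, miR-300, had 19069 mature reads in replicate 1 and no entry in replicate 2. Likewise, miR-483 had 5721 in replicate 2 and no entry in replicate 1. No level was therefore given to miR-223, or to miR-144 in replicate 1.

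**Figure D1:**
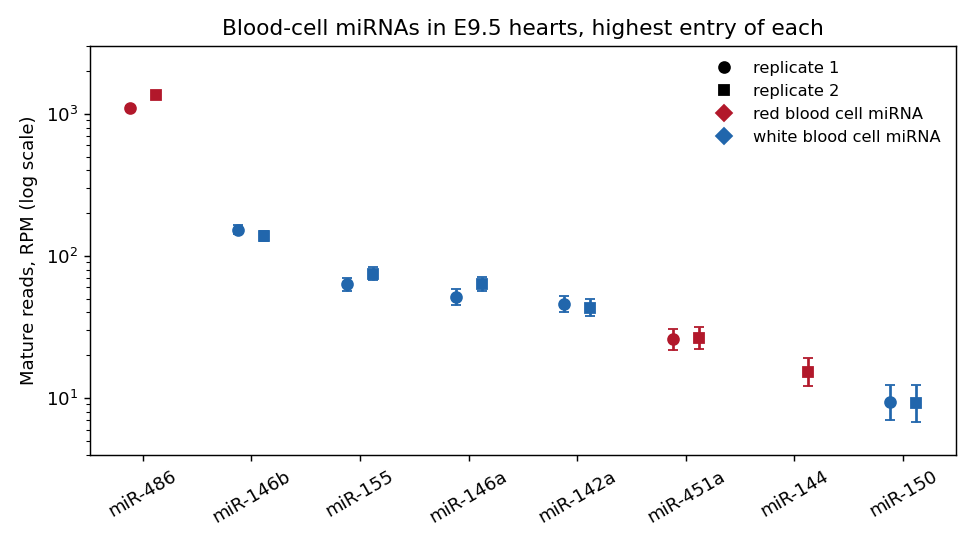
Mature reads in RPM (y axis, log scale) of the highest entry of each blood-cell miRNA (x axis) in replicate 1 (circles) and replicate 2 (squares), with 95% Wilson intervals that cover read counting only, in red for red blood cell and blue for white blood cell miRNAs. miR-486 stands apart at 1104 and 1360, miR-144 has a point for replicate 2 alone, and miR-150 is the lowest at 9.31 and 9.15.

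**Figure D2:**
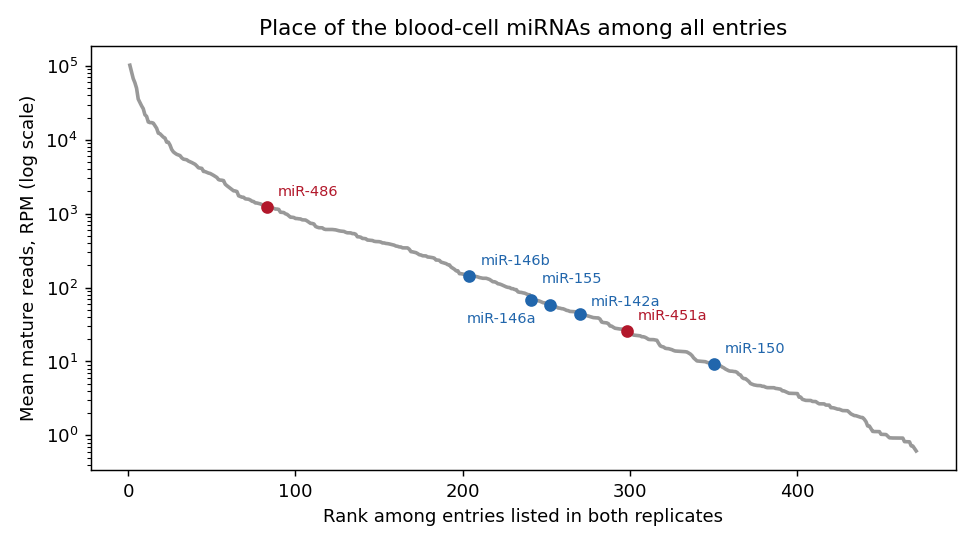
Mean mature reads in RPM (y axis, log scale) against rank (x axis) for the 471 entries listed in both replicates (grey line), with the highest entry of each member marked. miR-486 lies at rank 83, and the other members lie between rank 204 (miR-146b) and rank 350 (miR-150).

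Counting each mature sequence once, the red blood cell members held 5584 of 3619523 reads in replicate 1 and 6734 of 3499739 in replicate 2, or 0.154 and 0.192% (0.173 ± 0.027%, SD, n = 2). miR-486 made up 97.7 and 97.0% of those reads, which include miR-144 in replicate 2 alone. The ratio of miR-486 to miR-451a was 42.6 and 51.4 (47.0 ± 6.24, SD, n = 2). The white blood cell members held 1594 and 1580 reads, or 0.0440 and 0.0451% (0.0446 ± 0.000783%, SD, n = 2). Red exceeded white 3.50 and 4.26 times, and this excess lay with miR-486, since miR-142a had 1.77 and 1.63 times the reads of miR-451a. Because miR-486 is also known from striated muscle, the red sum need not come from red blood cells. Which cells its reads came from was not tested.

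The same counting placed these sums among miRNAs known from other cell types. Cardiomyocyte miRNAs (miR-1a, miR-133a, miR-208a, miR-208b and miR-499, all 5 listed in replicate 1 and miR-208a not listed in replicate 2) held 15.6 and 16.3% of reads, which fits the heart label, and those of smooth muscle (miR-143 and miR-145a) 10.8 and 9.36%. Endothelial miR-126a, which maintains vessel integrity, held 3.95 and 3.94%, and had 26.2 and 21.1 times the reads of the highest miR-486 entry. Liver miR-122 held 0.0575 and 0.0761%, epithelial miRNAs of the miR-200 family with miR-203 and miR-205 held 0.0518 and 0.0554%, and neural miR-9 and miR-124 held 0.00660 and 0.00509%. Of the neural miRNAs, miR-124 had 2 reads per entry in replicate 1 and was not listed in replicate 2. The white blood cell sum was thus below the epithelial sum in either replicate and above the neural sum.

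All 14 miRNAs of a list that blood cells share with many other tissues were listed, by 24 entries, and together held 10.2 and 10.3% of reads. Their levels ranged widely. miR-21a, common to growing and inflamed tissues, had 186562 and 160726 reads, miR-92a-1 of the proliferative miR-17~92 cluster had 100633 and 112216, and miR-16 of the cell-cycle family had 2138 and 2329. The entry miR-92a-2 on chromosome X had 79713 and 90257 reads. How far the miR-92a entries hold the same reads was not tested. At the lower end, miR-221 had 134 and 110 reads and miR-222 had 61 and 62, in the range of miR-451a and miR-150.

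miR-486 was listed by 3 entries with an identical mature sequence, which repeat reads rather than divide them. In mm9, the mature sequence occurs in the genome at chr8:24253059-24253080 on the plus strand and at chr8:24253099-24253120 on the minus strand, inside a hairpin that reads almost the same on both strands. The precursors of both strands are shown with the mature sequence in capitals, because each contains the reverse complement of that sequence in its other arm.
miR-486 plus strand, chr8:24253059-24253122: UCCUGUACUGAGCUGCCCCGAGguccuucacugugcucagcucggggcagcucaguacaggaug
miR-486 minus strand, chr8:24253059-24253120: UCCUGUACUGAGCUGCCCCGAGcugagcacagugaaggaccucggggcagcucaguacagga
They shared 62 positions and lay in an intron of Ank1, the ankyrin of the red blood cell membrane skeleton, on its plus strand and within the antisense transcript Gm15816. The minus strand entry had 5456 and 6534 mature reads and the plus strand entry 5264 and 6380, a ratio of 1.04 and 1.02. Reads of the identical mature sequence cannot be assigned to a strand. What lay behind the small difference between the strand entries was not tested. The minus strand entry was named miR-486a in replicate 1 and miR-486b in replicate 2, so the names do not separate the strands either. In folding energy per base (RNAfold), the minus strand precursor had the lowest value of all 620 entries, -0.761 kcal/mol, and the plus strand precursor had -0.745 against a median of -0.392.

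The third miR-486 entry lay upstream at chr8:24253024-24253080 on the plus strand, and covered the same 22 mature positions with a different partner arm. It had the same 5264 and 6380 mature reads as the plus strand entry and 0 star reads. Its miRDeep2 score, a log-odds score for a true precursor, was -1.9, against 2700 and 3300 for the minus strand entry, and it failed the randfold test of folding stability. A sum over all 5 red blood cell entries, which takes in these 3, gave 0.326 and 0.406% of all mature reads, whereas the highest miR-486 entry alone gave 0.110 and 0.136%.

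miR-146b was likewise listed by a pair of entries. Its mature sequence occurs 3 times in mm9, all on the plus strand of chromosome 19 within an intron of Tmem180, starting at positions 46416764, 46417047 and 46417280. The annotated copy starts at 46417280. Its precursor is shown with the mature sequence in capitals.
miR-146b, chr19:46417280-46417338: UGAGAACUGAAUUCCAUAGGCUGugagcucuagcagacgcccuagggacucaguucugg
The copy 233 nt upstream was part of a stretch of 158 nt identical to the annotated locus, and the copy 516 nt upstream was part of one of 65 nt. In both, the identity ended 3 bases past the mature sequence, so the star arm of the annotated hairpin was not part of the identical stretch. The upstream entry, chr19:46416981-46417069, listed the same 756 and 664 mature reads, 0 star reads, a score of -3.0 and a failed randfold test, while the annotated hairpin had 3 and 1 star reads and scores of 380 and 340.

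miR-146a was listed by a pair of minus strand entries as well, at chr11:43187901-43187958 and chr11:43187938-43188004, which share only the 21 positions of the mature sequence. Both listed 254 and 306 mature reads, 0 star reads and a score of 2.2. The first had the lower folding energy, -0.398 against -0.294 kcal/mol per base, and fell within the annotated Mir146. In all, 7 of the 12 member entries shared their mature sequence with another member entry. Over the whole series this held for 185 entries (32.6%) of replicate 1 and 170 (32.5%) of replicate 2.

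**Figure D3:**
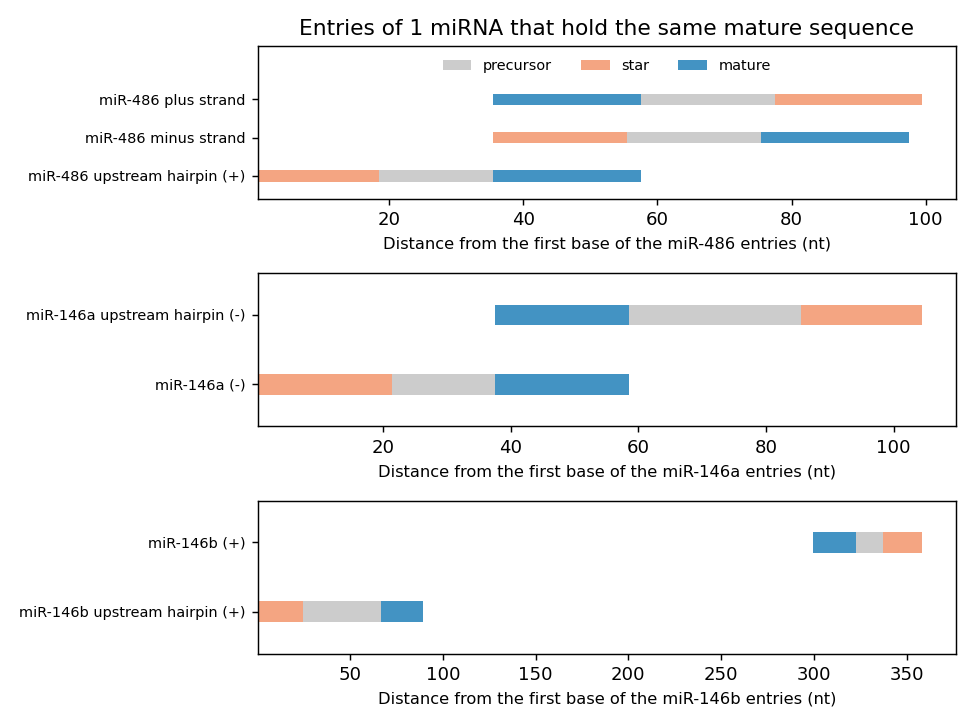
Extent in nt from the first base (x axis) of the entries of miR-486, miR-146a and miR-146b that hold the same mature sequence, with precursors in grey, the mature part in blue and the star part in orange, and the strand after each name. The opposite miR-486 precursors cover the same 62 positions, the miR-146a entries share their 21 mature positions, and the miR-146b entries lie 210 nt apart.

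The remaining members had 1 entry each. miR-144 (chr11:77886512-77886567) and miR-451a (chr11:77886688-77886727) lie on the plus strand 120 bases apart, between genes, with the ribosome assembly GTPase gene Eral1 as the nearest coding gene, 150 bases from miR-451a. miR-142a (chr11:87570367-87570427) lies in an intron of the noncoding transcript A430104N18Rik. miR-155 (chr16:84714388-84714447) lies in an exon of its own noncoding host, annotated as Mir155. miR-150 lies at chr7:52377132-52377187 on the plus strand. Each mature sequence occurs once in mm9 over the 20 chromosomes searched.

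The hairpin of miR-451a is too short for Dicer, and the miRNA is known to be cut by Ago2 instead, with the mature end running into the loop. Its deposited precursor is shown with the mature sequence in capitals.
miR-451a, chr11:77886688-77886727: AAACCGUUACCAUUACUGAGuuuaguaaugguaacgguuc
At 40 nt it was the shortest precursor of either table, a length it shared with 1 other entry in replicate 1, against a median of 60 nt. It was 1 of 3 entries in each replicate with 0 bases between the arms, where the median was 16 and 17. Its folding energy of -0.613 kcal/mol per base was low, with 3.06% of entries lower. Star reads numbered 2 and 4, or 1.54 and 3.05% of mature and star reads (95% Wilson intervals 0.423 to 5.44% and 1.19 to 7.59%). The RefSeq form of miR-451a extends 2 bases into the part listed as star.

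The arms of miR-144 were more evenly used. In replicate 2 it had 73 reads on the 5p arm and 51 on the 3p arm, a star share of 41.1% (32.9 to 49.9%). Equal use lay at the edge of what these reads allow, since the Wilson interval of the share ended just under 50% and the exact interval of the ratio of 3p to 5p, 0.699 (0.479 to 1.01), ended just above 1. Both arms together came to 124 reads, against 127 mature reads of its neighbour miR-451a, a ratio of 0.976 (0.756 to 1.26), while the 5p arm alone had 0.575 times the reads of miR-451a (0.425 to 0.773). These ratios rest on 1 library.

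miR-142a also kept reads on both arms. The entry is named for the 5p arm, but its mature reads lay on 3p, with 59 and 49 star reads on 5p, or 20.6 and 19.1% (19.9 ± 1.05%, SD, n = 2). Of the 310 entries with at least 100 reads on their arms, 85.2% had a lower mean star share. The 5p name is not particular to miR-142a. The miR-1a-1 entry is also named for 5p, while the authors list its 492873 and 503921 reads under 3p. For miR-486, the star share was 0.329 and 0.427% on the minus strand and 1.18 and 1.68% on the plus strand. It was 2.51 and 1.10% for miR-155 and 0.395 and 0.150% for miR-146b. The 5 and 1 star reads of miR-150 gave 9.80 and 2.22% with overlapping intervals (4.26 to 21.0% and 0.393 to 11.6%). miR-146a had 0 star reads, which allows a share of up to 1.18% in replicate 1 and 0.980% in replicate 2. No member entry had loop reads, while 10.2 and 11.1% of all entries had some.

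**Figure D4:**
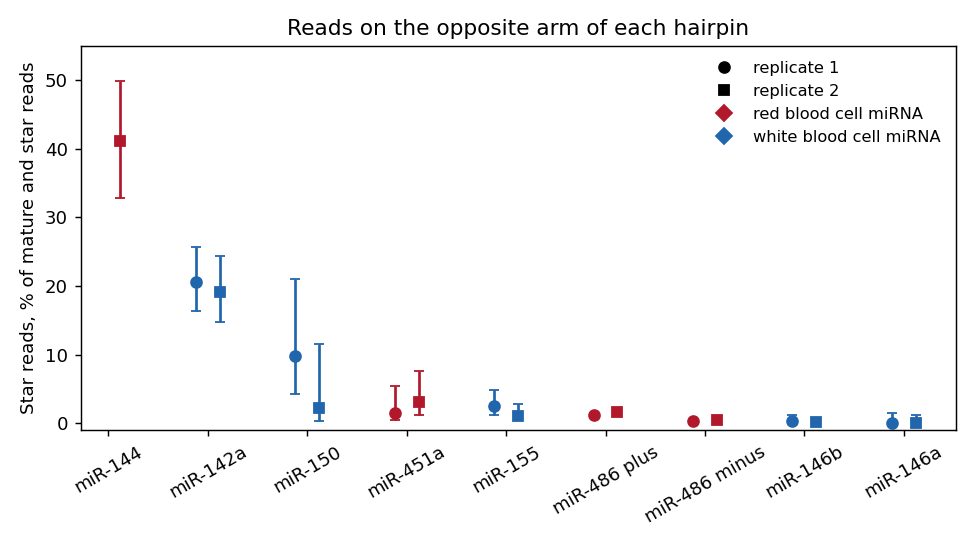
Star reads as percent of mature and star reads (y axis) for each member hairpin (x axis) in replicate 1 (circles) and replicate 2 (squares), with 95% Wilson intervals, in red for red blood cell and blue for white blood cell miRNAs. miR-144 is highest at 41.1%, miR-142a follows at 20.6 and 19.1%, and miR-146a lies at 0.

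The replicates were then compared entry by entry, to find which member levels differed between libraries by more than read counting. Over 431 entries with at least 20 mature reads in sum, the two-sided exact binomial test with Benjamini-Hochberg adjustment called 177 (41.1%), of which 119 were higher in replicate 2 and 58 higher in replicate 1. After TMM scaling the calls fell on both sides almost evenly, 86 higher in replicate 2 and 92 in replicate 1, and with DESeq2 size factors they were 78 and 98. Of the 11 member entries tested, 5 were called, all higher in replicate 2. They stand for 2 of 7 miRNAs, miR-486 and miR-146a, while over all entries with each mature sequence once 137 of 350 (39.1%) were called. The 11 member entries had a median log2 ratio of 0.25, but these repeat the reads of miR-486, miR-146a and miR-146b. With the highest entry of each of the 7 miRNAs the median was 0.029, and all entries tested had one of 0.072.

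miR-486 was higher in replicate 2 by a log2 ratio of 0.30 for the minus strand entry (95% interval 0.25 to 0.35, exact binomial adjusted p = 5.77e-29) and of 0.32 for the plus strand entry (0.26 to 0.37, exact binomial adjusted p = 2.46e-31). Of all entries tested, 69.4% had a smaller absolute ratio than the former. Liver miR-122 moved the same way, with 2083 and 2664 reads and a log2 ratio of 0.40 (exact binomial adjusted p = 4.32e-20). Neural miR-9 moved the other way, with 237 and 178 reads and a log2 ratio of -0.37 (exact binomial adjusted p = 0.0238). Among the broad blood miRNAs, miR-25 was higher in replicate 2, with a log2 ratio of 0.24 (exact binomial adjusted p = 3.19e-161), and miR-21a was lower, with -0.17 (exact binomial adjusted p = 1.89e-276), as was miR-22, with -0.098 (exact binomial adjusted p = 0.0115). The other red blood cell miRNA that could be tested, miR-451a, had 128 and 127 reads and a log2 ratio of 0.029 (-0.34 to 0.39, exact binomial adjusted p = 0.953). Its interval includes the ratio of miR-486, so the members are not shown to differ from each other. The part of other tissue or of library differences in the miR-486 ratio was not tested.

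The ratio of miR-146a was 0.31 (0.064 to 0.55, exact binomial adjusted p = 0.0311), but this call was lost under TMM scaling (0.25, adjusted p = 0.0925) and under DESeq2 size factors (0.24, adjusted p = 0.113). Conversely, miR-146b, with a log2 ratio of -0.15 (-0.30 to 0.0054, exact binomial adjusted p = 0.117), was called lower in replicate 2 under TMM scaling (-0.21, adjusted p = 0.021) and DESeq2 size factors (-0.22, adjusted p = 0.0146). The ratio of miR-146b to miR-146a was 2.98 in replicate 1 and 2.17 in replicate 2. miR-155 had a log2 ratio of 0.25 (0.024 to 0.47, exact binomial adjusted p = 0.0643) and was called where at least 100 reads in both replicates were asked for (adjusted p = 0.0484).

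miR-142a (-0.093, -0.37 to 0.19, exact binomial adjusted p = 0.665) and miR-150 (-0.024, -0.65 to 0.60, exact binomial adjusted p = 1) did not pass the test. With 46 and 44 reads, the interval for miR-150 is wide, and log2 differences from -0.65 to 0.60 are not excluded at this depth. Of the 24 entries of the broad blood list, 10 were called, 7 of them higher in replicate 2, close to the 41.1% called over all entries. Of those called, miR-21a and miR-16 are each counted by more than 1 entry, and miR-92a is counted as miR-92a-1 and miR-92a-2.

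**Figure D5:**
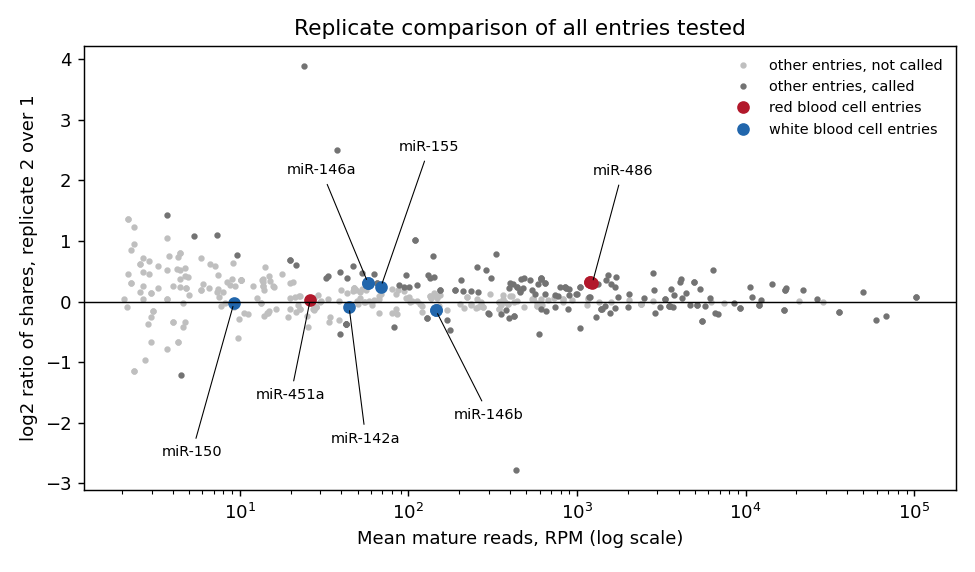
The log2 ratio of shares, replicate 2 over replicate 1 (y axis), against mean mature reads in RPM (x axis, log scale) for the 431 entries tested, with called entries in dark grey, other entries in light grey, red blood cell entries in red and white blood cell entries in blue. Member entries lie between -0.15 (miR-146b) and 0.32 (miR-486 plus strand), within the spread of other entries of like level.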

How the data were processed

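Small RNA of 2 samples of wild type E9.5 hearts was extracted with TRIZOL, prepared with the TruSeq Small RNA kit and sequenced on HiSeq2500. The authors mapped the reads to mm9 with miRDeep2 and deposited, for each replicate, raw counts of mature, star and loop reads per known precursor, not normalized. The authors also deposited a miRDeep2 score per precursor, used here to describe entries and to leave out those below 0. Versions of miRDeep2 and miRBase, trimming and length filters were not given in the sources used here. The members and lists were chosen with earlier results of these data known.

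All 1091 table entries had the sequence of NCBIM37 (mm9) at their position, with the start counted from 1 for 639 and from 0 for 452. Printed positions count from 1. Entries were paired between replicates at an overlap of at least 50% on the same strand. Genes are those of GENCODE vM1, and RefSeq miRNAs were matched by name. A library's depth was its mature reads, and a level was the share of these. With 1 group no condition was compared, and edgeR's quasi-likelihood test could not be made. The two-sided exact binomial test, adjusted by Benjamini-Hochberg over 431 entries and called under 0.05, compared the 2 libraries, not conditions. It was tested on simulated data first, and no outcome of that trial is given here. edgeR's common dispersion between the replicates was 0.0232. Shares were given with 95% Wilson intervals, and a limit at 0 stands for 3 reads. Without a spike-in, shares compare reads and not molecules. Reads without molecular identifiers are not independent molecules.

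All members were named, and of the lists of other blood and cell type miRNAs a few. Alternatives were TMM (edgeR 4.0.16), DESeq2 1.42.0 size factors, minimums of 1 and 100 reads, each mature sequence once, all reads of the precursor, and each replicate left out. Leaving out entries with a score below 0 was added after seeing the data. Python 3.11.15, scipy 1.17.1, R 4.3.3 and RNAfold 2.7.2 were used.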

Additional observations from a re-analysis of the deposited data

How the results depend on the processing

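The sums depend on whether repeated entries, which hold the same reads, are added up. The red blood cell sum of 0.366% over entries was 0.173% with each mature sequence once and 0.268% without entries of score below 0. The white blood cell sum of 0.0529% was 0.0446% and 0.0418%, respectively. Counting each sequence once also lowers the total; of all mature reads, the sums were then 0.127% and 0.0326%. With all reads of the precursor, the share of miR-144 was 0.00251% in place of 0.00152%, since its star reads were added. With each mature sequence once, 2 of 7 member entries were called in place of 5 of 11. Over all entries at that setting, 137 of 350 (39.1%) were called. Among single members, the log2 ratio of miR-451a reversed from 0.029 to -0.030 under TMM scaling and to -0.039 under DESeq2 size factors, passing the test under none of them. The calls of miR-146a were lost and those of miR-146b gained under both scalings, and miR-155 gained a call with at least 100 reads. The cause was not tested. The count of entries called stayed within 1.5 times of 177 under all 7 alternatives, at 137 to 184, and the calls of miR-486 held under each of them. Leaving out a replicate was not run for the replicate comparison, which needs both, and leaves for each level the value of the other replicate. miR-144 and miR-150 rest on under 100 mature reads, and miR-144 on 1 library. No paired analysis was possible because the series has 1 group.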
